A study of Mus musculus with 15 samples.

Results

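The long-chain acyl-CoA synthetases Acsl1, Acsl3, Acsl4, Acsl5 and Acsl6 were followed in the livers and lungs of mice fed with or without plant sterols. They were selected by gene symbol alone, and all 5 were found among the 54532 genes of the count tables. Wild-type C57BL/6J mice, an inbred laboratory strain, received a control diet (CS group) or the same diet with 2% phytosterols (PS group), plant sterols that resemble cholesterol. The RNA-seq libraries, of poly(A) RNA, came from 9 livers (4 CS, 5 PS) and 6 lungs (3 CS, 3 PS), 1 library per mouse and tissue, and 6 of the 9 mice gave both tissues. Replicates are numbered within each tissue, and lung PS replicates 2 and 3 are the mice of liver PS replicates 3 and 5. The labels call all mice 28 weeks old, but by the study's methods this was the length of the feeding, so that the mice, all males, were older than labelled. The study asked how phytosterol intake alters lipid metabolism in each tissue, and the family was compared between the diets within each tissue and between lung and liver.

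Long-chain acyl-CoA synthetases join a fatty acid to coenzyme A with the use of ATP, a step that traps the fatty acid in the cell and that nearly all of its later uses require. The members sit on different membranes and are thought to hand acyl-CoA to different pathways. Acsl1 is the major form of liver, fat and heart and serves oxidation and triglyceride synthesis, Acsl3 sits on the endoplasmic reticulum and on nascent lipid droplets, and Acsl4 prefers arachidonic acid and shapes the polyunsaturated phospholipids of membranes. Acsl5 is found in liver and intestine, and Acsl6 is best known from brain and from red cell precursors. In the lung, acyl-CoA is needed for the phospholipids of surfactant, which alveolar type II cells secrete.

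The 5 genes lie on 5 chromosomes of the mouse genome build GRCm38, at chr8:46471037-46536051 (Acsl1, ENSMUSG00000018796, plus strand), chr1:78657825-78707743 (Acsl3, ENSMUSG00000032883, plus strand), chrX:142317993-142390535 (Acsl4, ENSMUSG00000031278, minus strand), chr19:55251938-55297720 (Acsl5, ENSMUSG00000024981, plus strand) and chr11:54303798-54364756 (Acsl6, ENSMUSG00000020333, plus strand). RefSeq gives start-site windows for all 5 of 5 members on GRCm38.p6, each holding 250 bases before a gene start and 50 after it. Acsl1 has 2 such windows, Acsl6 has 3 and each other member has 1. The windows of the 4 members with a measurable level in both tissues are shown because the comparisons turn on these genes. Capitals mark matches on either strand to the motifs searched, which are named after the sequences.
Acsl1 window 1: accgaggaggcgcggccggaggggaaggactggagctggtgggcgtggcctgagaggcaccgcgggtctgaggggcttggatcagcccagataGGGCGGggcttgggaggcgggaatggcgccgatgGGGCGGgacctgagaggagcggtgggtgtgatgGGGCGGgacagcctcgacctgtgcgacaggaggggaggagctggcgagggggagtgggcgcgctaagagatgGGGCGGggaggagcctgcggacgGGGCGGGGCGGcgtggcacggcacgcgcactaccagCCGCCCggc
Acsl1 window 2: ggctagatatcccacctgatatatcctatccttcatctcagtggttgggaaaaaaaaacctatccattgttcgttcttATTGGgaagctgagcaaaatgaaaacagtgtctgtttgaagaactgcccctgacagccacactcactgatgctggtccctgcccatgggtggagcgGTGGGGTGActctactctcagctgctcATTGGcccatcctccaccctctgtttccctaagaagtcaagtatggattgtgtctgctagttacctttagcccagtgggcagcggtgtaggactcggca
Acsl3: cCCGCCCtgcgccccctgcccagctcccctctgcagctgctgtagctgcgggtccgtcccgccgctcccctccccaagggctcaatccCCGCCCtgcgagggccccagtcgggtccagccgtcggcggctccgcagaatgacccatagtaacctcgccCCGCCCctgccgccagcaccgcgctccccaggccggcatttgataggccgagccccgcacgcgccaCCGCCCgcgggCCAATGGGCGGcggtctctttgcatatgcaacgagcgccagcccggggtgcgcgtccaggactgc
Acsl4: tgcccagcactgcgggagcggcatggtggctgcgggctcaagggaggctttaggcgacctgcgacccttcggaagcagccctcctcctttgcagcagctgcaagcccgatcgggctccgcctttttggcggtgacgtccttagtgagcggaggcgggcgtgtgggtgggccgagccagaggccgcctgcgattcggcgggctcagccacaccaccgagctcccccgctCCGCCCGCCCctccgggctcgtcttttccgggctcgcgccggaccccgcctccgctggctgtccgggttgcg
Acsl5: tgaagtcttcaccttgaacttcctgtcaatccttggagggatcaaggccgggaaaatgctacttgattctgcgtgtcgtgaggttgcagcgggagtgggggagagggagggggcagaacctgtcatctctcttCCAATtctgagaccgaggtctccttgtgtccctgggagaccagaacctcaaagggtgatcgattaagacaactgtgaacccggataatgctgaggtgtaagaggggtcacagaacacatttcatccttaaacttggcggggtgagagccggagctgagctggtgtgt
The first Acsl1 window is chr8:46470787-46471086 on the plus strand and surrounds the start of the gene, and the second is chr8:46490716-46491015 on the plus strand, inside the gene, at a further start site. The Acsl3 window is chr1:78657575-78657874 on the plus strand, the Acsl4 window is chrX:142390486-142390785 on the minus strand, and the Acsl5 window is chr19:55253119-55253418 on the plus strand, downstream of the start that the count tables give for this gene. The first Acsl1 window and the windows of Acsl3 and Acsl4 were GC-rich, with 74.0%, 74.0% and 71.7% G or C and 30, 33 and 33 CpG dinucleotides, against medians of 52.7% and 7 over all 32851 windows. The second Acsl1 window held 50.0% G or C and 4 CpG, and the Acsl5 window 53.0% and 9. The GC box GGGCGG was found 7 times in the first Acsl1 window, 5 times in that of Acsl3 and 2 times in that of Acsl4, where some matches share bases, and not in the second Acsl1 window or that of Acsl5. It occurs in 35.7% of all windows. The CCAAT box, searched as CCAAT, was present in the second Acsl1 window and in those of Acsl3 and Acsl5, and occurs in 37.4% of all windows. The sterol regulatory element TCACNCCAC, which occurs in 1.24% of all windows, had 1 match, in the second Acsl1 window. The nuclear receptor half-site AGGTCA is held by 16.3% of all windows, its direct repeat spaced by 1 base (AGGTCANAGGTCA) by 0.0396%, the E-box CACGTG by 7.15% and the TATA box TATAAA by 13.6%. None of these last 4 motifs was in the 5 windows shown, and a match or its lack says nothing of binding.

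The libraries held 14410117 to 17625179 counts in the livers and 17934930 to 19396057 in the lungs. All 6 hepatocyte markers, among them albumin (Alb), were detected in every liver, where they summed to 74762 to 116660 CPM, against 0.411 to 97.8 CPM in the lungs. CPM are counts scaled to a library total of 1000000, here after scaling within each tissue by TMM, a method that sets libraries equal over the bulk of their genes. The 6 markers of alveolar type II cells summed to 17068 to 31058 CPM in the lungs and 10.8 to 40.7 CPM in the livers. The libraries differed in the share of counts from mitochondrial genes. It was 14.4% in CS replicate 2, 13.3% in PS replicate 1 and 9.79% in PS replicate 3 among the livers, and 3.33% to 6.50% in the other 6. In the lungs it was 2.94% to 3.51% in the CS group and 6.13%, 7.28% and 3.69% in PS replicates 1, 2 and 3. Levels are given as TMM-scaled FPKM, which are these CPM per kilobase of gene model, and are written FPKM for short. Fold changes and p-values come from edgeR's quasi-likelihood test on the counts, with p-values adjusted by the Benjamini-Hochberg method over all genes that passed its filter on low counts. In whole tissue, fewer cells of a type and less RNA per cell cannot be told apart.

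In the lung, 3 of the 4 members tested had every PS library below every CS library, as did 18.8% of all genes tested. Acsl1 passed the adjustment, as did 4.43% of all genes with a lower PS level. The mean PS level was 0.505 of the CS mean for Acsl1, 0.615 for Acsl4, 0.646 for Acsl3 and 0.831 for Acsl5. Acsl6 was close to undetected.

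The Acsl1 level in the lung was 8.85, 8.01 and 7.05 FPKM in CS replicates 1 to 3 and 4.66, 2.68 and 4.75 FPKM in PS replicates 1 to 3. All PS lungs were below all CS lungs, and PS replicate 2 was the lowest. The means of the CS and PS lungs were 7.97 ± 0.903 and 4.03 ± 1.17 FPKM (SD, n = 3 each). Acsl1 fell 1.98-fold, a log2 fold change of -0.98 (SE 0.22, 95% interval -1.49 to -0.48, adjusted p = 0.0364). Over all 16717 lung genes tested, 4.43% passed the adjustment with a lower level in the PS group, and 1 of the 4 members tested did. The adjusted p rose to between 0.0856 and 0.118 when any of the CS lungs or PS replicate 2 was left out, and it was 0.0250 and 0.0293 without PS replicate 1 and PS replicate 3.

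Acsl4, the arachidonate-preferring member, had 35.6, 21.3 and 25.6 FPKM in the CS lungs and 17.9, 17.1 and 15.7 FPKM in the PS lungs. The groups did not overlap, and CS replicate 1 stood above the other 2 CS lungs. The log2 fold change was -0.70 (SE 0.19, unadjusted p = 0.00571, adjusted p = 0.0543), so that the difference did not pass the adjustment.

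Acsl3, the lipid droplet member, had 8.41, 7.62 and 8.96 FPKM in the CS lungs and 5.76, 4.11 and 6.27 FPKM in the PS lungs. Again the groups did not overlap and PS replicate 2 was the lowest. The log2 fold change was -0.63 (SE 0.18, unadjusted p = 0.00771, adjusted p = 0.0613), and it passed the adjustment without PS replicate 3 (adjusted p = 0.0385).

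Acsl5 had 33.4, 30.3 and 32.8 FPKM in the CS lungs and 30.6, 24.6 and 25.03 FPKM in the PS lungs. PS replicate 1 lay just above the lowest CS lung, so that the groups overlapped by that 1 library. The log2 fold change was -0.27 (SE 0.14, 95% interval -0.59 to 0.06, adjusted p = 0.242). Of the 4 members tested, 3 had a lower level in the PS group at an unadjusted p of at most 0.05 and the same 3 showed no overlap between the groups. Of all lung genes tested, 14.5% met the first criterion and 18.8% had every PS library below every CS library.

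The exact permutation test on 3 against 3 lungs cannot give a p below 0.1, and it gave p = 0.1 for Acsl1, Acsl3 and Acsl4, p = 0.2 for Acsl5 and p = 1.0 for Acsl6. By the Wald test of DESeq2, Acsl1, Acsl3 and Acsl4 were all called (adjusted p = 0.00117, 0.0236 and 0.0123), as were 8.85% of all genes in this direction.

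**Figure D1:**
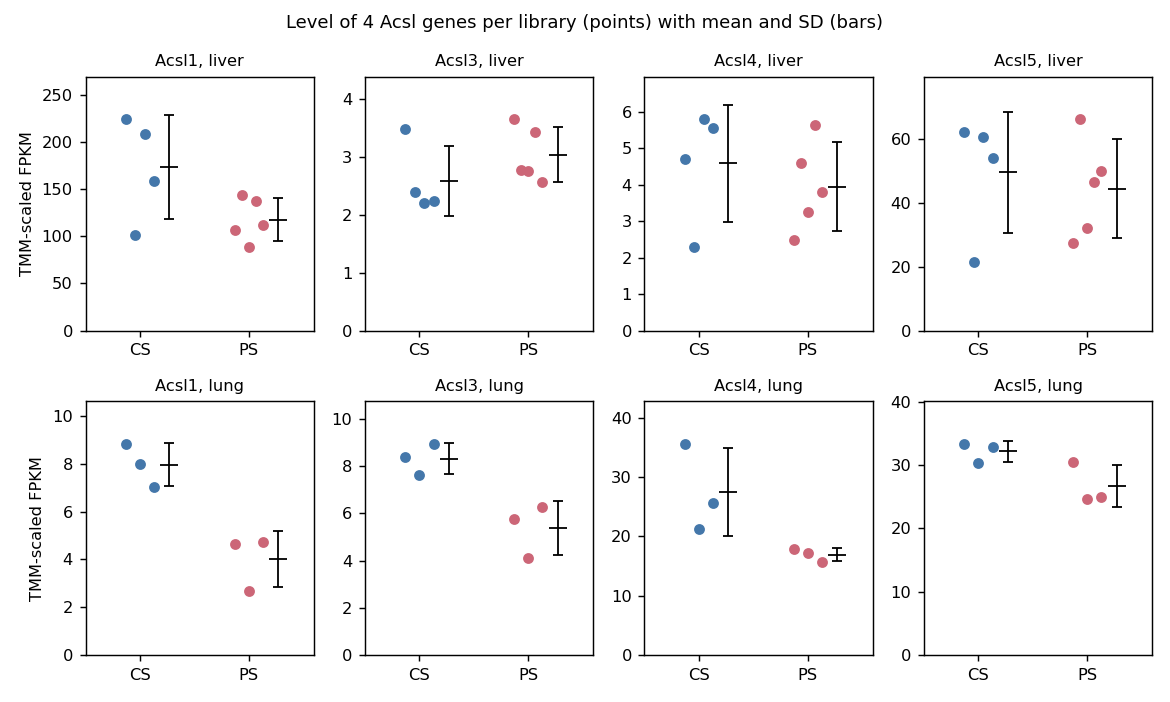
TMM-scaled FPKM (y axis, from 0) of Acsl1, Acsl3, Acsl4 and Acsl5 in each library (points) of the CS and PS groups (x axis), liver above and lung below, with the mean and SD of each group as bars. In the lung the PS points of Acsl1, Acsl3 and Acsl4 lie below all CS points, whereas in the liver the groups overlap for every gene.

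The mitochondrial share moved with the lung result. Every PS lung had a larger share than every CS lung, so that the share and the diet cannot be told apart in these lungs. PS replicate 2, the lung with the largest share (7.28%), had the lowest Acsl1 and Acsl3 levels. PS replicate 3, with a share of 3.69%, had Acsl1 at 4.75 FPKM. With the share as a covariate, the log2 fold change of Acsl1 was -0.51 (unadjusted p = 0.120, adjusted p = 0.447), that of Acsl3 was -0.31 (adjusted p = 0.580) and that of Acsl4 was -0.80 (unadjusted p = 0.0377, adjusted p = 0.317), and no gene of the lung passed the adjustment, with 1569 genes higher and 874 lower at an unadjusted p of at most 0.05.

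Markers of cells that are rich in Acsl1 varied among the lungs. The 6 fat cell markers summed to 115, 157 and 23.3 CPM in the CS lungs and 125, 10.6 and 8.001 CPM in the PS lungs. Of these markers 3 of 6 were at 0 in PS replicates 2 and 3. All 6 had a lower fitted level in the PS group, and edgeR called none of them by the adjusted or by the unadjusted p. The 7 heart muscle markers summed to 177, 274 and 185 CPM in the CS lungs and 495, 44.5 and 91.7 CPM in the PS lungs, and the 5 skeletal muscle markers to 3.54, 8.28 and 366 CPM and to 7.46, 1.45 and 3.31 CPM. The 3 brown fat markers summed to 10.8, 10.8 and 34.1 CPM in the CS lungs and 15.3, 5.86 and 6.40 CPM in the PS lungs. Cidea of brown fat (log2 fold change -1.40) and Actc1 and Ryr2 of heart (-0.91 and -0.77) had an unadjusted p of at most 0.05 (0.0205, 0.0183 and 0.0462), and none passed the adjustment by edgeR. Of the other heart markers, Tnni3, Myl7, Myh6 and Tnnt2 were at 0.95, 0.635, 0.16 and 0.09 and Nppa at -0.997. PS replicate 1 held as much fat marker RNA as CS replicate 1 and more heart marker RNA than any other lung, and its Acsl1 level of 4.66 FPKM was below that of all CS lungs. The 6 alveolar type II markers summed to 17068 to 18405 CPM in the CS lungs and to 20050 to 31058 CPM in the PS lungs, but most of this sum was Sftpc (log2 fold change 0.82), Napsa was at 0.50, Sftpb was at 0.04 and Abca3, Slc34a2 and Lamp3 were at -1.0, -0.57 and -0.26. The 5 B and plasma cell markers summed to 668 to 1232 CPM and to 1370 to 1782 CPM, most of it Jchain (0.67), while Ms4a1 was at -1.09 and Cd79a at -0.13. Of the 65 markers of 14 cell types tested in the lung, Kdr of endothelial cells, Adgre1 of macrophages and Alas2 of erythroid cells fell past the adjustment (log2 fold changes -0.95, -0.81 and -1.24) and 0 rose, a share near the 4.43% of all genes. Other markers of these cells lay higher, with Mrc1, Csf1r and Cd68 of macrophages at 0.68, 0.42 and 0.54 and Tie1 of endothelial cells at 0.47. The part of these cells in the lung result was not tested.

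In the liver, no member passed the adjustment. Among the 4 members tested, Acsl1, the most abundant, had the log2 fold change farthest from 0, and its direction was the same as in the lung.

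The Acsl1 level in the liver was 224, 102, 209 and 159 FPKM in CS replicates 1 to 4 and 107, 143, 89.0, 138 and 112 FPKM in PS replicates 1 to 5. The groups overlapped through CS replicate 2, and the other 3 CS livers were above all PS livers. The log2 fold change was -0.56 (SE 0.25, 95% interval -1.11 to -0.01, unadjusted p = 0.0479, adjusted p = 0.658). At this unadjusted threshold 3.58% of the 13195 liver genes tested were lower in the PS group, and past the adjustment 0.00758% of them differed in either direction. The exact permutation test of the Acsl1 level gave p = 0.0952 (two-sided, n = 4 and 5).

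Acsl5 was the next most abundant member of the liver, with 62.1, 21.6, 60.4 and 53.9 FPKM in the CS livers and 27.3, 66.0, 31.98, 46.5 and 49.9 FPKM in the PS livers. Its groups overlapped widely (log2 fold change -0.16, 95% interval -0.89 to 0.58, adjusted p = 0.970). Acsl4 ranged from 2.28 to 5.79 FPKM in the CS livers and from 2.47 to 5.62 FPKM in the PS livers (log2 fold change -0.21, 95% interval -0.87 to 0.44, adjusted p = 0.945). Acsl3 ranged from 2.21 to 3.48 FPKM in the CS livers and from 2.57 to 3.65 FPKM in the PS livers (log2 fold change 0.23, 95% interval -0.21 to 0.68, adjusted p = 0.867).

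The 3 livers with the largest mitochondrial shares had the 3 lowest levels of Acsl1, of Acsl4 and of Acsl5, but not of Acsl3, whose highest level was in PS replicate 1. Without these 3 livers the Acsl1 log2 fold change was -0.59 (unadjusted p = 0.0139, adjusted p = 0.387), and with the mitochondrial share as a covariate it was -0.41 (unadjusted p = 0.0214, adjusted p = 0.230). Without CS replicate 2 it was -0.74 (unadjusted p = 0.00342, adjusted p = 0.136), and in 6 of the 9 fits that left out 1 liver the unadjusted p rose above 0.05, up to 0.150 without CS replicate 1. The 6 fat cell markers summed to 22.5 to 73.3 CPM in the CS livers and to 5.25 to 22.2 CPM in the PS livers, most of it from the lipid droplet gene Cidec, and Adipoq was at most 0.233 CPM in any liver. All 6 macrophage markers (median log2 fold change -0.69), all 5 endothelial markers (-0.56) and all 5 fibroblast markers (-0.40) had a lower fitted level in the PS livers. Clec4f, Csf1r and Cldn5 were the ones of these with an unadjusted p of at most 0.05 (0.00548, 0.0475 and 0.00160), and none passed the adjustment by edgeR. The part of these cells was not tested.

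**Figure D2:**
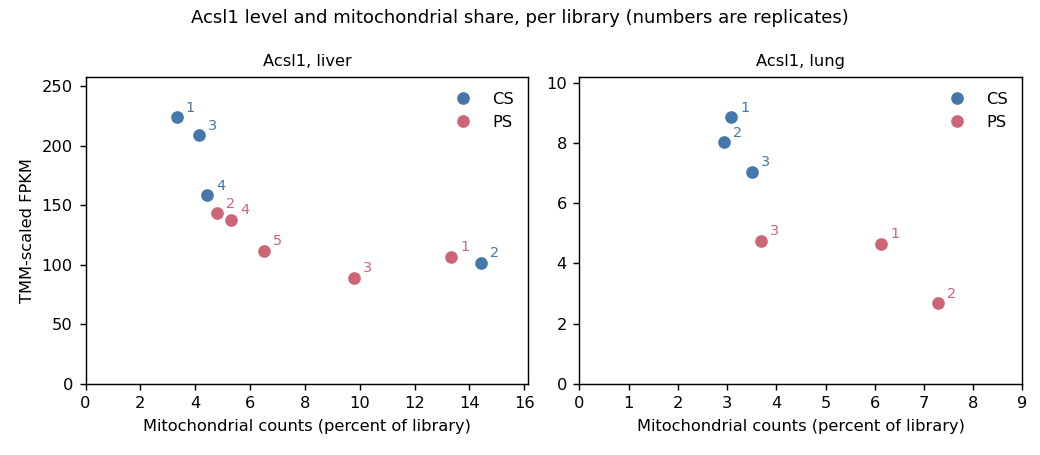
TMM-scaled FPKM of Acsl1 (y axis) against the percent of counts from mitochondrial genes (x axis) in each liver (left) and lung (right), with the replicate number beside each point. CS replicate 2, at 14.4%, lies among the PS livers, and PS lung replicate 3, at 3.69%, lies below all CS lungs.

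The diet effects of the tissues were compared in 1 model over all 15 libraries. The difference of the log2 fold changes, lung minus liver, was -0.91 for Acsl3 (SE 0.29, 95% interval -1.53 to -0.28, unadjusted p = 0.00703, adjusted p = 0.333), the member whose fitted level was higher in the PS livers and lower in the PS lungs. It was -0.47 for Acsl1 (95% interval -1.38 to 0.44), -0.52 for Acsl4 (95% interval -1.44 to 0.39) and -0.14 for Acsl5 (95% interval -1.14 to 0.85). No member passed the adjustment by edgeR, 1 of 4 had an unadjusted p of at most 0.05, and DESeq2's Wald test also called 0 members. Over the 17696 genes tested, 5.4% had a lower diet effect in lung at an unadjusted p of at most 0.05 and 0.0226% passed the adjustment in either direction. With mouse as a block, over the 6 mice with both tissues, the Acsl3 difference was -0.76 (unadjusted p = 0.0605).

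Acsl6 was near the limit of detection. It had 0, 0, 0 and 2 counts in CS livers 1 to 4 and 12, 3, 3, 2 and 4 counts in PS livers 1 to 5. Without PS replicate 1 the PS total was 12, and the lowest PS liver equalled the highest CS liver. A count of 0 allows up to 3 counts, or 0.166 to 0.202 CPM, in these livers. The sums of 2 and 24 counts gave a ratio of 9.80, with an exact 95% interval of 2.43 to 85.6 that covers counting error only. Acsl6 did not pass the filter on low counts in either tissue. Without the filter its unadjusted p in the liver was 0.0247 and its adjusted p was 0.678, and the exact permutation test of its level gave p = 0.0317. The 6 erythroid markers, from cells in which Acsl6 is known to be expressed, summed to 202, 203, 137 and 114 CPM in the CS livers and to 222, 78.1, 193, 229 and 190 CPM in the PS livers. Of the 4 that passed the filter, Klf1 had a log2 fold change of 0.65 (unadjusted p = 0.0156, adjusted p = 0.486 by edgeR). Hba-a1, Hbb-bt and Alas2 were at 0.22, 0.20 and -0.08. The part of these cells was not tested. The lungs had 4, 5 and 6 counts with CS and 8, 2 and 3 with PS, a ratio of 0.944 (exact 95% interval 0.413 to 2.13).

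Liver and lung differed in which members made up the family. Each member's count per gene length was expressed as a percent of the sum of the 5 in the same library, a share that needs no scaling between libraries. In the liver Acsl1 made up 72.6% ± 4.57 (SD, n = 9) of the family, Acsl5 23.7% ± 4.47, Acsl4 2.18% ± 0.429 and Acsl3 1.58% ± 0.581. In the lung Acsl5 made up 46.5% ± 4.88 (SD, n = 6), Acsl4 33.9% ± 4.18, Acsl3 10.6% ± 1.47 and Acsl1 9.04% ± 2.17. The lowest Acsl1 share of any liver was 66.1% and the highest of any lung was 11.9%, and the Acsl4 share was at most 2.91% in the livers and at least 30.3% in the lungs. Acsl6 was at most 0.0667% of the family in any liver and 0.0811% in any lung.

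**Figure D3:**
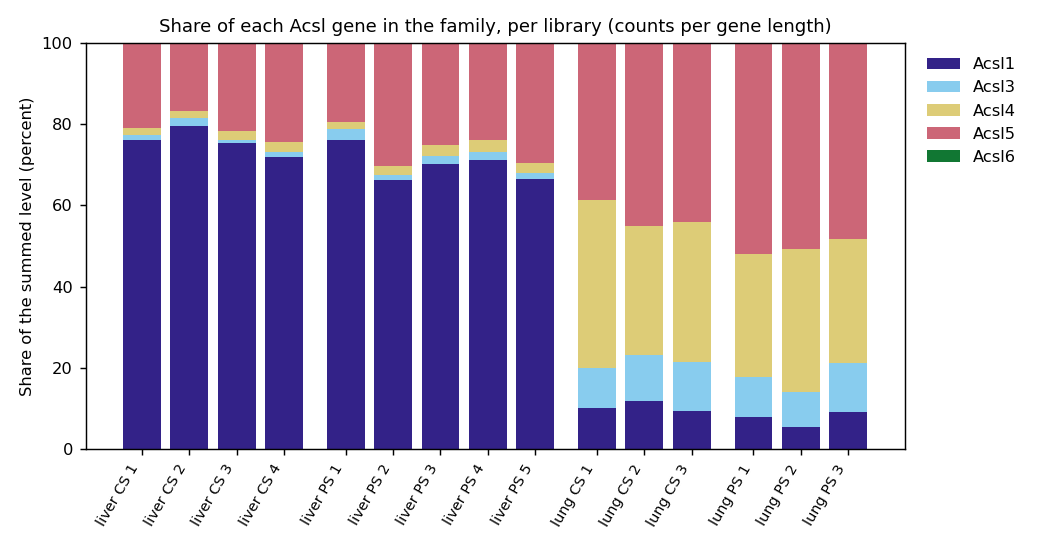
Share of each Acsl gene in the summed level of the family (y axis, percent, counts per gene length) in each of the 15 libraries (x axis). Acsl1 fills 66.1% or more of each liver bar, and Acsl5 and Acsl4 fill most of each lung bar, while Acsl6 is too small to be seen.

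In the 6 mice with both tissues, the Acsl1 share differed between lung and liver by -64.9 ± 3.93 percentage points (paired mean ± SD). The shares of Acsl4, Acsl5 and Acsl3 were higher in lung by 31.9 ± 4.27, 24.1 ± 5.73 and 8.88 ± 1.92 percentage points. Each of these differences had the same sign in 6 of 6 mice, and so did that of Acsl6, 0.0244 ± 0.0140 percentage points on counts of 0 to 12 per library. The two-sided exact sign-flip test gave p = 0.0312 for each (adjusted p = 0.0312 over the 5 members), the smallest value that 6 pairs allow. The 5 shares of a library add up to the whole, so that a lower Acsl1 share raises the others as a group. The 5 tests therefore depend on each other. A higher share need not be a higher level, and with TMM scaling Acsl5 was 4.19-fold lower in lung.

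Within the liver the order of the mean shares was Acsl1, Acsl5, Acsl4, Acsl3 and Acsl6. The neighbours compared were set by ranking the mean shares of the same libraries, so that their p-values give no separate support for the order. The 16 comparisons span both tissues and both gene lengths, the second of which is described below. Acsl1 exceeded Acsl5 in 9 of 9 livers and Acsl5 exceeded Acsl4 in 9 of 9 (exact paired sign-flip p = 0.00391 each, adjusted p = 0.0104 over 16 neighbour comparisons). Acsl4 exceeded Acsl3 in 7 of 9 livers, and these neighbours did not differ beyond their spread (exact p = 0.0547, adjusted p = 0.0673). Within the lung the order was Acsl5, Acsl4, Acsl3, Acsl1 and Acsl6. Acsl5 exceeded Acsl4 in 5 of 6 lungs (exact p = 0.0625), with Acsl4 ahead in CS replicate 1, and Acsl3 exceeded Acsl1 in 4 of 6 (exact p = 0.125), so that neither pair differed beyond its spread. Acsl4 exceeded Acsl3 in 6 of 6 (exact p = 0.0312, adjusted p = 0.0417).

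The gene model of Acsl1 in the count tables, 10483 bases, joins 11 transcripts, and its longest protein-coding transcript is 3897 bases. Divided by the longest protein-coding transcript of each gene, the Acsl1 share was 86.2% of the liver family and 19.5% of the lung family, and Acsl1 then exceeded Acsl3 in 6 of 6 lungs. Acsl5 then also exceeded Acsl4 in 6 of 6 lungs (exact p = 0.0312, adjusted p = 0.0417). The place of Acsl1 in the lung order, and whether Acsl5 and Acsl4 differed there beyond their spread, therefore depend on the length used. On the other strand, exons of Acsl1 share 1039 bases with Gm45244, those of Acsl5 404 bases with Zdhhc6 and those of Acsl6 202 bases with Gm12224. Exons of Acsl3 share 244 bases with Utp14b on the same strand, an overlap that the strand cannot resolve. Whether counting used the strand is not given in the sources used here, and the counts of these genes are uncertain to the extent of the overlaps.

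The fold change of each member between the tissues rests on a scaling across tissues whose libraries hold different RNA. In the model over 15 libraries Acsl1 was 66.1-fold lower in lung (log2 fold change -6.05, SE 0.29, adjusted p = 6.91e-12), Acsl5 was 4.19-fold lower (-2.07, SE 0.25, adjusted p = 1.21e-06) and Acsl4 was 1.93-fold higher (0.95, SE 0.21, adjusted p = 0.000652). Acsl3 had a log2 fold change of -0.13 (95% interval -0.44 to 0.18, adjusted p = 0.426). Of all genes tested, 42.3% were higher and 34.4% lower in lung past the adjustment, and the median log2 fold change was 0.17. With library totals in place of TMM that median was 1.55, and the values became -4.67 for Acsl1, -0.70 for Acsl5, 2.32 for Acsl4 and 1.25 for Acsl3, all past the adjustment. The directions of Acsl1, Acsl4 and Acsl5 thus held under both scalings, whereas that of Acsl3 turned. With each library's trend with gene length removed, Acsl4 was at 0.43 and no longer passed (adjusted p = 0.0621), and Acsl3 passed at -0.63 (adjusted p = 0.000909), as it did at -0.38 with the trend with GC content removed (adjusted p = 0.0318). Relative to the median of all genes, Acsl3 lay 0.30 below it with TMM and with library totals alike.

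The tissue differences were also fitted within each diet. Acsl1 had a log2 fold change, lung over liver, of -5.81 in CS mice and -6.28 in PS mice, and passed under all 8 other settings in either diet. Acsl5 was at -1.99 and -2.14, and passed under 7 of 8 settings in CS mice, not with library totals (-0.62, adjusted p = 0.117), and under 8 of 8 in PS mice. Acsl4 was at 1.21 in CS mice (adjusted p = 0.00245) and at 0.69 in PS mice (adjusted p = 0.0471). With the trend with gene length removed its call was lost in CS mice (0.66, adjusted p = 0.0557) and in PS mice (0.20, adjusted p = 0.531). In PS mice it was also lost in 8 of 15 fits that left out 1 library, those without liver CS replicate 4, liver PS replicates 1, 3 or 5, lung CS replicate 3 or any of the PS lungs (adjusted p up to 0.118). Acsl3 was at 0.32 in CS mice (adjusted p = 0.189) and at -0.59 in PS mice (adjusted p = 0.0190), but over the 8 other settings it ranged from -0.20 to 1.69 and from -1.07 to 0.80 and passed in 2 and 3 of them. Without lung PS replicate 2 it was at -0.42 in PS mice (adjusted p = 0.120), and without liver CS replicate 1 at 0.57 in CS mice (adjusted p = 0.0252), so that it has no settled direction within either diet.

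**Figure D4:**
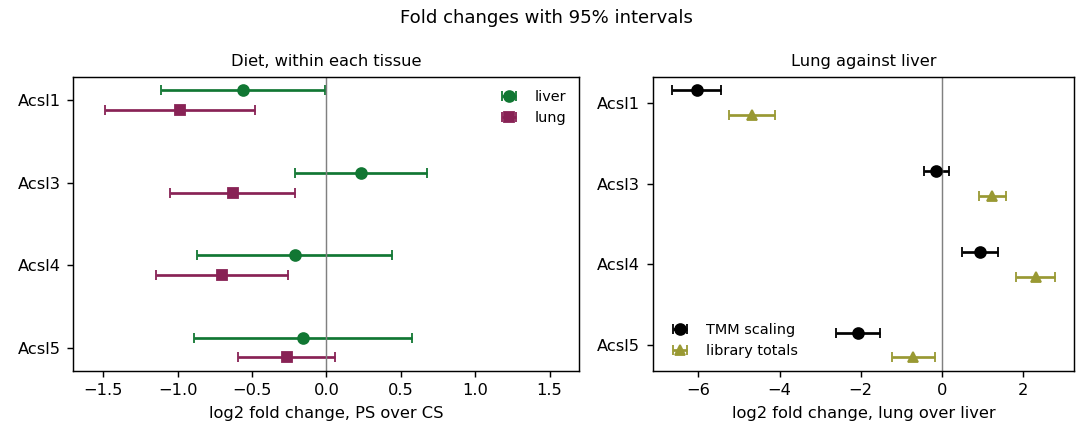
Log2 fold changes (x axes) of 4 members with 95% intervals. Left, PS over CS in liver (circles) and lung (squares), where the lung intervals of Acsl1, Acsl3 and Acsl4 exclude 0, as does the liver interval of Acsl1 (-1.11 to -0.01). Right, lung over liver with TMM scaling (circles) and with library totals (triangles), where Acsl3 moves from -0.13 to 1.25.

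The make-up of the family was also compared between the diets, with no share past the adjustment. In the lung, 3 against 3 samples cannot give a p below 0.1, so that no difference there could pass. In the lung the Acsl5 share was 42.6% ± 3.45 (SD, n = 3) with CS and 50.3% ± 1.83 (SD, n = 3) with PS, and the Acsl1 share was 10.5% ± 1.25 and 7.53% ± 1.85. For neither share did the groups overlap, and the exact permutation test gave p = 0.1 (adjusted p = 0.25 over the 5 members). The Acsl5 share was higher with PS while the mean PS level of Acsl5 was 0.831 of the CS mean. In the liver the Acsl1 share was 75.7% ± 3.09 (SD, n = 4) with CS and 70.0% ± 4.05 (SD, n = 5) with PS (exact p = 0.0635, adjusted p = 0.159), and the Acsl5 share was 21.1% ± 3.16 and 25.8% ± 4.48 (exact p = 0.143, adjusted p = 0.179). The shares of Acsl3 and Acsl4 did not pass the test in the liver, and that of Acsl6, on the counts given above, had exact p = 0.0317 and adjusted p = 0.159.

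The level of the family as a whole was taken as the sum of the 5 members' TPM. In the lung it was 204, 162 and 158 TPM with CS and 104, 103 and 117 TPM with PS, again with no overlap (log2 ratio of means -0.69, exact permutation p = 0.1, the smallest possible). In the liver it was 713, 217, 682 and 409 TPM with CS and 229, 458, 246, 468 and 351 TPM with PS, and the groups overlapped (log2 ratio of means -0.53, exact permutation p = 0.254).

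The neighbours of the family in acyl-CoA metabolism were counted in 7 lists of 101 entries, chosen with earlier results of these data known. In the lung 82 entries were tested, of which 5 fell and 5 rose past the adjustment, against 4.43% lower and 4.8% higher over all genes. These counts rested on single libraries. Without any 1 of the CS lungs or without PS replicate 2, 0 entries passed by edgeR, where at most 25 of all genes were lower and at most 2 higher, as 0 did with the mitochondrial share as a covariate, while 11 fell and 8 rose without PS replicate 1 (all genes 6.95% and 10.2%) and 11 fell and 2 rose without PS replicate 3 (all genes 7.67% and 5.55%). By the Wald test of DESeq2 14 fell and 8 rose (all genes 8.85% and 9.64%). Among other acyl-CoA synthetases, 2 of 13 fell, Acsm1 of medium-chain fatty acids (log2 fold change -1.17, adjusted p = 0.0359) and the mitochondrial acetyl-CoA synthetase Acss1 (-0.88, adjusted p = 0.0398), and 0 rose. Among genes of acyl-CoA entry into mitochondria and oxidation, 1 of 10 fell, the very long-chain acyl-CoA dehydrogenase Acadvl (-1.64, adjusted p = 0.0255), and 1 rose, Cpt1c, a carnitine palmitoyltransferase best known from neurons (1.53, adjusted p = 0.0347). Cpt1a, which commits acyl-CoA to mitochondrial oxidation, had a log2 fold change of -0.45 (adjusted p = 0.0673).

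In glycerolipid synthesis 1 of 13 lung genes fell, the mitochondrial glycerol-3-phosphate acyltransferase Gpam (log2 fold change -2.35, adjusted p = 0.0163), which starts glycerolipid synthesis from acyl-CoA, and 1 rose, the last enzyme of triglyceride synthesis Dgat1 (0.73, adjusted p = 0.0473). The phospholipase Pla2g6 (0.76, adjusted p = 0.0469), the acyl-CoA binding protein gene Acbd4 (0.76, adjusted p = 0.0484) and the hormone-sensitive lipase Lipe (0.66, adjusted p = 0.0338) rose, each the only gene of its list to pass. Pla2g4a, which releases the arachidonate that Acsl4 can reactivate, had a log2 fold change of -0.69 (adjusted p = 0.0923). Of 11 transcription factors tested, Ppara, the fatty acid sensor known to drive Acsl1 in liver, fell (-2.001, adjusted p = 0.0312) and 0 rose. The list medians in the lung were -0.67 for the 4 members, -0.48 for other acyl-CoA synthetases, -0.27 for oxidation, 0.23 for glycerolipid synthesis, -0.05 for phospholipid remodelling, -0.11 for thioesterases and acyl-CoA binding, -0.22 for lipid droplets and 0.12 for transcription factors, against 0.01 for all genes.

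**Figure D5:**
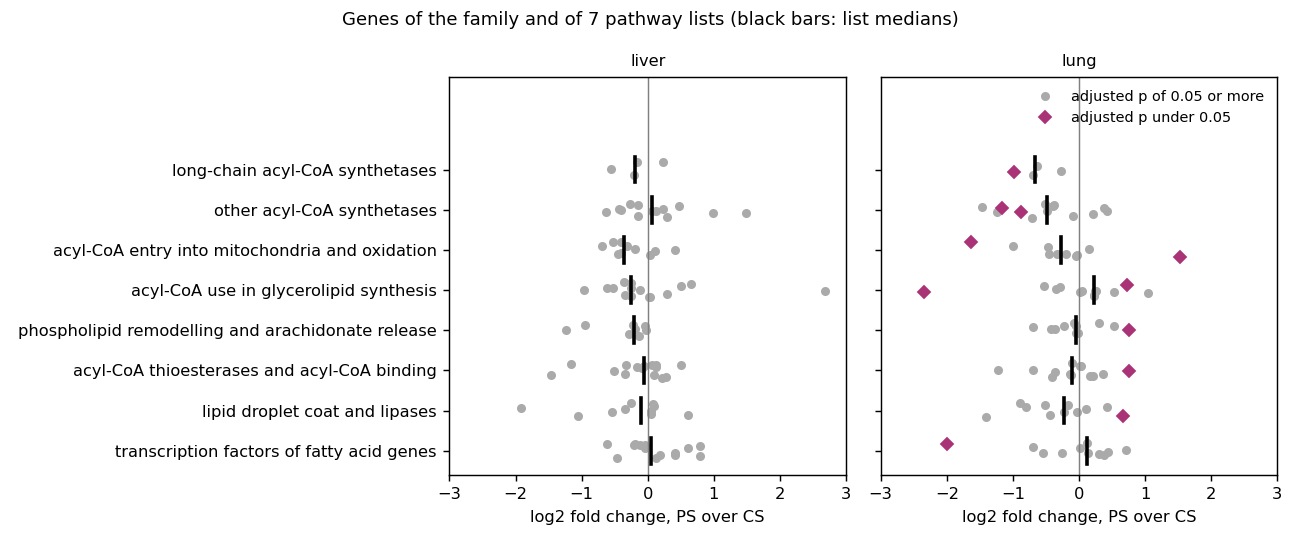
Log2 fold change, PS over CS (x axis), of the Acsl genes and of each tested gene of 7 pathway lists (rows) in liver (left) and lung (right), with diamonds for an adjusted p under 0.05 and black bars for list medians. The members' median is -0.19 in liver and -0.67 in lung, and diamonds appear in the lung alone.

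In the liver 85 entries were tested and 0 passed the adjustment by edgeR (2 higher and 3 lower by the Wald test of DESeq2, with 0.834% and 0.402% of all genes), while at an unadjusted p of at most 0.05 there were 13 lower and 6 higher, against 3.58% and 3.96% of all genes. Those with a lower level included Cpt2 of the carnitine shuttle (log2 fold change -0.53, unadjusted p = 0.00543) and the lipid droplet coat gene Plin2 (-1.05, unadjusted p = 0.0479). The phosphatidate phosphatase gene Lpin1 had the largest positive value (2.69, unadjusted p = 0.000178, adjusted p = 0.105), and Srebf1, a driver of fatty acid synthesis, was at 0.79 (unadjusted p = 0.0223). All 10 fitted values of the oxidation list had a median of -0.36, against -0.03 for all liver genes.

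Between the tissues, most listed genes differed. Of 93 entries tested, 17 were higher and 66 lower in lung past the adjustment, against 42.3% and 34.4% of all genes. In lung, 9 of 10 oxidation genes, 11 of 15 glycerolipid genes and 11 of 14 transcription factors were lower past the adjustment, as was Acsl1, against 34.4% of all genes. With library totals in place of TMM these were 9, 7 and 8, against 14.7% of all genes lower and 72.3% higher. The log2 fold changes with TMM were large for several of them, with Cpt2 at a log2 fold change of -4.97, Dgat2 at -6.66 and Ppara at -6.45. The phospholipid remodelling list went both ways, with 6 of 11 genes higher and 5 lower, or 8 and 2 with library totals. Lpcat1, which makes the saturated phosphatidylcholine of surfactant, was 6.23 higher on the log2 scale and Pla2g4a 2.91 higher, in the same direction as Acsl4.

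The genes most like each member were found from log2 CPM over the 15 libraries after the mean of each library's own tissue and diet group was taken off, among 9888 genes present in both tissues. For Acsl1 they were Slc39a9, Iba57, Sf3a1, Mcur1 and Minpp1 (Pearson's r from 0.969 to 0.940). For Acsl5 they were Ccnc, Yipf5, Kpna2, Aig1 and Rpe (0.978 to 0.967), and for Acsl4 they were Ddx3y, Vps54, Polr3b, Atf1 and Wapl (0.972 to 0.953). For Acsl3 they were Cdc25a, Fam187b, Endod1, Mmp2 and Fbxo46, with lower values (0.884 to 0.800). Among the members themselves r was 0.859 for Acsl4 and Acsl5, 0.793 for Acsl1 and Acsl5 and 0.683 for Acsl1 and Acsl4, 0.518 for Acsl1 and Acsl3, but 0.030 for Acsl3 and Acsl4 and 0.077 for Acsl3 and Acsl5. Within the 6 lungs the order was another, with 0.823 for Acsl1 and Acsl3, 0.521 for Acsl4 and Acsl5, 0.455 for Acsl1 and Acsl5 and 0.144 for Acsl1 and Acsl4. These values describe 15 libraries that share depth and RNA composition within each sample, and the 3 livers with large mitochondrial shares lie at one end for Acsl1, Acsl4 and Acsl5.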

How the data were processed

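Poly(A) RNA-seq of 9 livers and 6 lungs was analysed. Per the labels and the study's methods, the authors aligned reads to mm10 with HISAT2 2.0.5 and deposited raw counts per gene from featureCounts 1.5.0-p3. The FPKM values deposited by the authors were, within each library, proportional to these counts over gene length. The strand setting of the counting is not given in the sources used here.

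Counts were tested with edgeR 4.0.16 in R 4.3.3 (filterByExpr with a minimum count of 10, TMM, quasi-likelihood test, Benjamini-Hochberg over all genes, adjusted p under 0.05), separately for liver and lung between the diets, and in 1 model of 4 groups for lung against liver and for the difference of the diet effects. The fits were tested on simulated data. Library totals were 14410117 to 19396057 counts, so that low counts, as those of Acsl6, carry large counting error. Shares and levels of single members were compared by exact permutation tests, two-sided.

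The members and lists were chosen with earlier results of these data known. The genes named are the 5 members, genes whose exons overlap theirs, genes of the pathway and marker lists and, for each member, the 5 genes with the highest Pearson correlation. The alternatives were DESeq2 1.42.0 (size factors and Wald test), limma 3.58.1 on log2(FPKM + 1) and log2(FPKM + 0.1), no filter, a stricter filter, each library's trend with gene length removed, replicate or mouse as a block and each library left out. Those chosen after seeing the data were GC content, library totals, the mitochondrial share, transcript length for the shares and summed TMM-scaled FPKM. Liver and lung libraries of the same animal, paired by the mouse numbers in the labels, had deviations from their group means that correlated from -0.046 to 0.115. The values of 1 gene of the pathway lists are not reported here.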

Additional observations from a re-analysis of the deposited data

Results flagged for a closer look

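In 22 comparisons of the members' levels, shares and sums among the 4 CS or the 5 PS livers, 5 had a library that stood apart from its group by Dixon's test at the 95% level, where chance would give about 1 in 20. The Acsl3 level in CS liver replicate 1 was 3.48 TMM-scaled FPKM, against 2.21 to 2.40 in the other 3 CS livers. Acsl6 in CS liver replicate 4, with 2 counts, was at 0.0129 FPKM and 0.00586% of the family, against 0 in the other 3. Acsl6 in PS liver replicate 1, with 12 counts, was at 0.0935 FPKM and 0.0667% of the family, against 0.0113 to 0.0268 FPKM and 0.00586% to 0.0159% in the other 4. These Acsl6 values rest on few counts, and both measures of a library come from the same counts. With 0 counts in the other 3 CS livers, any count in replicate 4 would have been flagged, so that the rate of 1 in 20 does not hold there.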

How the results depend on the processing

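Of 569 values recomputed under an alternative, 504 stayed the same, with direction and side of the threshold kept. A count of members called was taken as the same when equal or within a fixed ratio. Of the rest, 36 lost a call, 9 gained one, 9 counts of members called moved and 11 values turned, and 33 of 37 results kept their direction throughout. Among the 36 are all 6 fits without 1 mouse for each of the 5 share differences, lung minus liver. Those losses were fixed in advance, since 5 mice cannot give a p below 0.0625 in the exact sign-flip test. The cause was not tested for any of the other changes. The number of members called in the lung, 1, was 3 with the DESeq2 Wald test, 3 without a filter, 3 with the replicate block and 0 with the mitochondrial share as a covariate, and ranged from 0 to 2 with 1 lung left out. The Acsl5 value in the liver turned to 0.080 with that covariate. Acsl3 between lung and liver turned to 0.142 with at least 10 counts in every library, 0.013 with DESeq2 size factors, 0.013 with the DESeq2 Wald test and 1.246 with library totals, and ranged from -0.174 to 0.015 with 1 library left out. The difference of the Acsl5 diet effects turned to 0.082 with mouse as a replicate block and 0.011 with the GC trend removed, and ranged from -0.283 to 0.112 with 1 library left out. With 1 mouse left out the share differences, lung minus liver, ranged from -66.4 to -64.2 percentage points for Acsl1, 8.41 to 9.40 for Acsl3, 30.3 to 32.6 for Acsl4, 22.4 to 25.4 for Acsl5 and 0.0204 to 0.0274 for Acsl6, where 5 mice cannot give a p below 0.0625. The lung share difference of Acsl6 between the diets ranged from -0.00771 to 0.0212.

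Replicate numbers did not pair the samples within a tissue, since the correlations of same-numbered libraries ran from -0.226 to -0.023 in the liver and from -0.023 to 0.096 in the lung, with 0 of 8 livers and 3 of 6 lungs closest to their own number. The mouse block kept 3 members called between lung and liver.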
